A study of Mus musculus with 15 samples.

Results

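The comparison asked which miRNAs differed at day 9 between mouse epiblast stem cells differentiating with and without the morphogens SHH and FGF8. It rests on 6 of the 15 miRNA arrays of the series: the 3 arrays labelled as dopaminergic (DA) cells at day 9 and the 3 labelled as control cells of the same day. Both groups came from epiblast stem cells (EpiSC) of Pitx3-GFP mice, whose fluorescent reporter follows a gene of midbrain dopaminergic neurons, and the labels call both primary cells. Differentiation ran for 14 days in all; the treated cells received SHH and FGF8 from day 5, and the control cells were grown without them. Doses are not given in the sources used here. No sorting of GFP-positive cells is stated, and whether each array measured a whole culture is not known. The labels number replicates 1 to 3 in each group without saying that they were separate cultures. The p-values therefore measure the spread between these samples, which may be technical. In RNA pooled from many cells, fewer cells of a type and less of a miRNA per cell cannot be told apart.

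SHH, a ligand of the Hedgehog pathway, and FGF8, a fibroblast growth factor of the midbrain-hindbrain boundary, together pattern the ventral midbrain, where dopaminergic neurons arise. A miRNA is a short RNA that guides Argonaute proteins to messenger RNAs, mainly by pairing of its seed (bases 2 to 8), and represses them. In neural differentiation the miR-302 family marks the starting cells, let-7 rises as cells leave the pluripotent state, miR-9 is known from neural progenitors and miR-124 from neurons.

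Shown here are sequences of 5 families or clusters with more than 1 member called in the same direction, written 5′ to 3′ with the seed in capitals. They were taken from RefSeq (GRCm38.p6), which gave a mature sequence for 227 of the 306 miRNAs tested. The 3 members of the miR-29 family share a seed, and all were higher in treated cells:
miR-29a-3p: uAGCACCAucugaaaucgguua
miR-29b-3p: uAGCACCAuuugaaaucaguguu
miR-29c-3p: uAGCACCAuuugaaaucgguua
The miRNAs miR-132-3p and miR-212-3p, which come from neighbouring hairpins, also share a seed and were higher:
miR-132-3p: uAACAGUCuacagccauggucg
miR-212-3p: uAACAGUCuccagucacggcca
The hairpins of miR-23a, miR-27a and miR-24-2 lie next to each other, but their products have different seeds:
miR-23a-3p: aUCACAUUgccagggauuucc
miR-27a-3p: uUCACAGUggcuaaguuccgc
miR-24-3p: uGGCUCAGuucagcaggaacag
The let-7 family has a common seed, and the tested let-7 members were lower in treated cells, as these 4 show:
let-7a-5p: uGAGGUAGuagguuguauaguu
let-7c-5p: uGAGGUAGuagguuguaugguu
let-7g-5p: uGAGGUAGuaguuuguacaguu
let-7i-5p: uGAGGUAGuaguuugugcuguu
The miR-181 family shares another seed and was also lower:
miR-181a-5p: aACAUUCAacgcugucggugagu
miR-181b-5p: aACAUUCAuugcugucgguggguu
miR-181c-5p: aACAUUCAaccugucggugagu
miR-181d-5p: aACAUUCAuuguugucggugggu

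Each array gave a signal for 1122 mouse miRNAs, and 244 to 257 of them were above background on the control arrays and 271 or more on each treated array. Levels below are scaled log2 signals: the log2 of the background-subtracted signal of the brightest probe, divided by the 75th percentile over 353 probes above background on all arrays. They compare arrays, not miRNAs with each other. A floor was set at -4.27, and limma tested the 306 miRNAs that 1 or more of the 5 groups of the series showed above background on each of its arrays. A miRNA was called where p, adjusted by Benjamini-Hochberg over the 306, was below 0.05. Replicates correlated at 0.997 to 0.998 among treated arrays and at 0.994 to 0.998 among control arrays (Pearson, across the 306 miRNAs, which are not independent), against 0.949 to 0.958 between the groups. Slide 1 held the 3 treated arrays and slide 2 the 3 control arrays of day 9, and treatment and slide cannot be told apart. Spike-in controls moved with the slide: on the 15 arrays the labelling control ran from 2.97 to 3.11 (log10) on slide 1 and from 2.71 to 2.86 on slide 2, and the hybridisation control from 4.4 to 4.43 and from 4.02 to 4.24. A fit with slide as a fixed block takes the slide difference from the treated day 14 arrays, of which 1 lay on slide 2, and is called the slide-blocked fit below.

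At day 9, 170 of the 306 miRNAs (55.6%) were called, 124 higher in treated cells (40.5%) and 46 lower (15%). This split depends on the scaling, because the median difference of all tested miRNAs was 0.25. It was 0.01 with each array's median as the divisor (72 higher, 85 lower), -0.03 with quantile normalization (65 higher, 89 lower) and -0.25 with the 75th percentile over all probes (41 higher, 121 lower). Under all 4 of these scalings 41 miRNAs were called higher (13.4%) and 43 lower (14.1%). With the slide-blocked fit 56 were called higher (18.3%) and 19 lower (6.21%), and 39 (12.7%) and 16 (5.23%) met both conditions. The 3 arrays of the treated group lay all above or all below the 3 of the control group for 218 miRNAs (71.2%), above for 157 (51.3%) and below for 61 (19.9%). Differences of dim miRNAs also depend on how low signals are treated, and many of those below were smaller with normexp background correction or with a floor 4 times higher. Calls over 2-fold numbered 29, of which 25 were higher. The difference varied with the strength of the signal: among the 102 brightest of the tested miRNAs 35 were called higher and 28 lower (median 0.04), and among the 102 dimmest 41 and 8 (median 0.29).

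**Figure D1:**
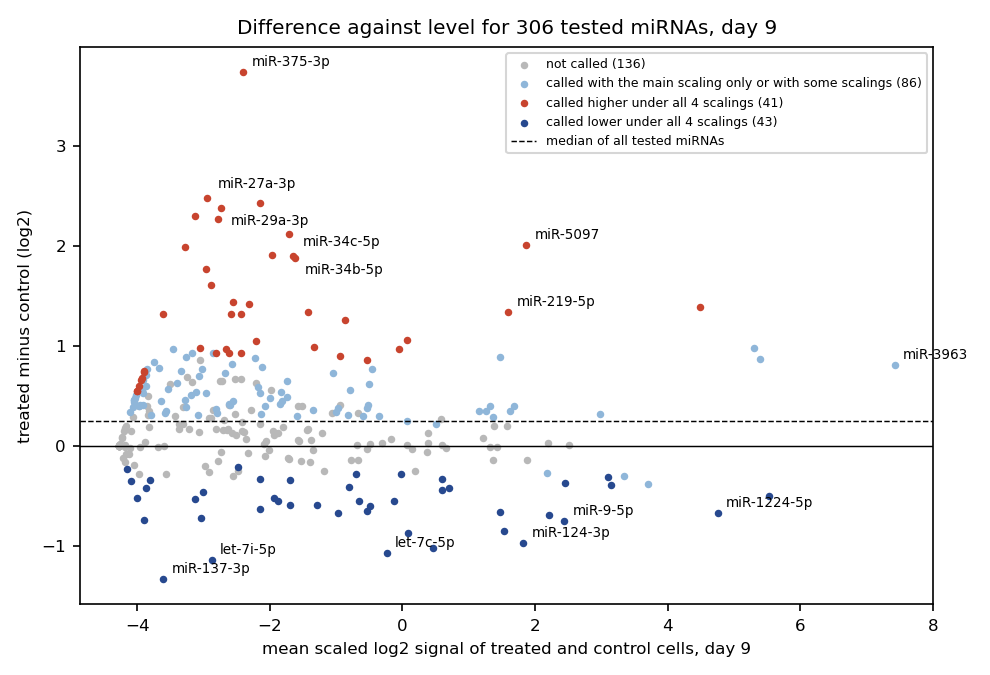
Treated minus control difference (log2, vertical axis) against the mean scaled log2 signal of the 6 day 9 arrays (horizontal axis) for the 306 tested miRNAs, 1 point each. Red and dark blue points are the 41 and 43 miRNAs called higher or lower under all 4 scalings, pale blue the other 86 called with the main scaling, and grey the 136 not called. The dashed line is the median of 0.25, and the pale points near it are those whose call or direction moved with the scaling.

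The largest difference was that of miR-375-3p, known from pancreatic islets and other endocrine cells. Its signal in treated cells was -0.48, -0.49 and -0.62 on the 3 arrays, and it was above background on 0 of the 3 control arrays and 0 of the 3 arrays of day 5 cells. Treated cells were therefore at least 12.6-fold higher (adjusted p = 4.01e-14, limma). An "at least" fold sets the treated mean against the dimmest probe still above background on each control array, or with the probe's own signal where that was higher. Of the day 9 groups, miRNAs given such a fold passed the filter only through the brighter group. Their p-values set that group against values at or near the floor, and are no separate support for the difference. The call held in the slide-blocked fit (adjusted p = 6.87e-11) and under all 4 scalings, and the fitted difference of 3.74 on the log2 scale was 1.98 with normexp and 1.74 with the higher floor. Of the 17 endoderm miRNAs on the array, including miR-375-3p, 15 were above background on none of the 6 arrays, among them the liver miRNA miR-122 and, of the gut and pancreas, miR-217, miR-215, miR-194 and miR-192, in every arm. The other endoderm marker above background, miR-216a-5p, went the opposite way and was at least 1.14-fold lower in treated cells (adjusted p = 0.0016; 0.0979 in the slide-blocked fit). The summed scaled signal of the list was 0.701 to 0.768 in treated and 0.116 to 0.121 in control cells. Most of the treated sum was miR-375-3p, which counted at the floor in controls, so the sum does not describe the list as a whole.

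The 3 miRNAs of the miR-29 family, regulators of collagens and other extracellular matrix genes, all rose (40.5% of all tested miRNAs were called higher). The signal of miR-29a-3p was -1.54, -1.57 and -1.56 in treated cells and -4.03, -3.91 and -3.85 in controls, where 2 of 3 arrays were above background. The groups lay far apart beside their SDs of 0.01 and 0.09, and miR-29a-3p rose by 2.37 on the log2 scale (SE 0.09, adjusted p = 8.58e-11). Treated arrays gave -1.99, -2.00 and -1.93 for miR-29b-3p, which was above background on 0 control arrays and was at least 4.63-fold higher (adjusted p = 2.46e-09). For miR-29c-3p the values were -2.16, -2.16 and -2.21 against -3.25, -3.05 and -3.13, a rise of 0.97 (SE 0.08, adjusted p = 2.12e-07). The family median was 2.30 against 0.25 for all tested miRNAs, lay between 1.78 and 2.30 over the 4 scalings, and was 1.77 in the slide-blocked fit, where all 3 calls held. The differences of miR-29a-3p, miR-29b-3p and miR-29c-3p shrank to 0.93, 0.80 and 0.40 with normexp and to 0.71, 0.30 and 0.09 with the higher floor, still called. With the mean of a miRNA's probes in place of the brightest probe they were 2.26, 1.23 and 1.01, also called. Members differ at few bases and can share probe signal, so the 3 rises are not 3 independent measurements. The hairpins of miR-29a and miR-29b-1 lie at chr6:31062660-31063093 on the minus strand, where the RefSeq table lists no other gene. Those of miR-29b-2 and miR-29c lie at chr1:195037040-195037634 on the plus strand, within the long non-coding RNA A330023F24Rik. The mature miR-29b-3p of both loci is the same, so the array does not tell them apart.

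The 5 tested miRNAs of the miR-23/27/24 clusters, known from vascular and fat cells, were called higher, against 40.5% of all tested miRNAs. Of these, miR-27a-3p and miR-27b-3p differ at few bases and can share probe signal, so the 5 calls are not independent. Treated arrays gave -0.98, -1.01 and -1.05 for miR-23a-3p and control arrays -2.87, -2.95 and -2.96, so that miR-23a-3p rose by 1.91 (SE 0.07, adjusted p = 7.61e-11). The signal of miR-27a-3p was -1.79, -1.66 and -1.67 against -4.25, -4.12 and -4.19, a rise of 2.48 (SE 0.08, adjusted p = 1.66e-11), with 2 of 3 control arrays above background. For miR-24-3p the arrays read -0.75, -0.76 and -0.76 against -2.13, -2.05 and -2.11, a rise of 1.34 (SE 0.08). None of these 3 had overlapping groups (treated above control for 51.3% of all tested miRNAs). Their hairpins lie together at chr8:84208518-84208921 on the plus strand, where the table lists no other gene. A second cluster, at chr13:63300484-63301275 within the gene Aopep on the same strand, makes miR-23b, miR-27b and the same mature miR-24-3p. There miR-27b-3p rose by 1.05 (SE 0.10, adjusted p = 1.85e-06). The difference of miR-23b-3p was smaller, 0.30 (SE 0.10, adjusted p = 0.020), and it was not called in the slide-blocked fit (adjusted p = 0.104) and turned to -0.29 with the percentile over all probes. It was also not called without treated replicate 3 (adjusted p = 0.0502) or without control replicate 3 (0.0852). The median of the 5 was 1.34, between 0.75 and 1.34 over the scalings and 1.31 in the slide-blocked fit. With normexp miR-27a-3p differed by 0.91, miR-23a-3p by 1.0, miR-24-3p by 0.82 and miR-27b-3p by 0.51, and with the higher floor miR-27a-3p by 0.56, all still called.

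**Figure D2:**
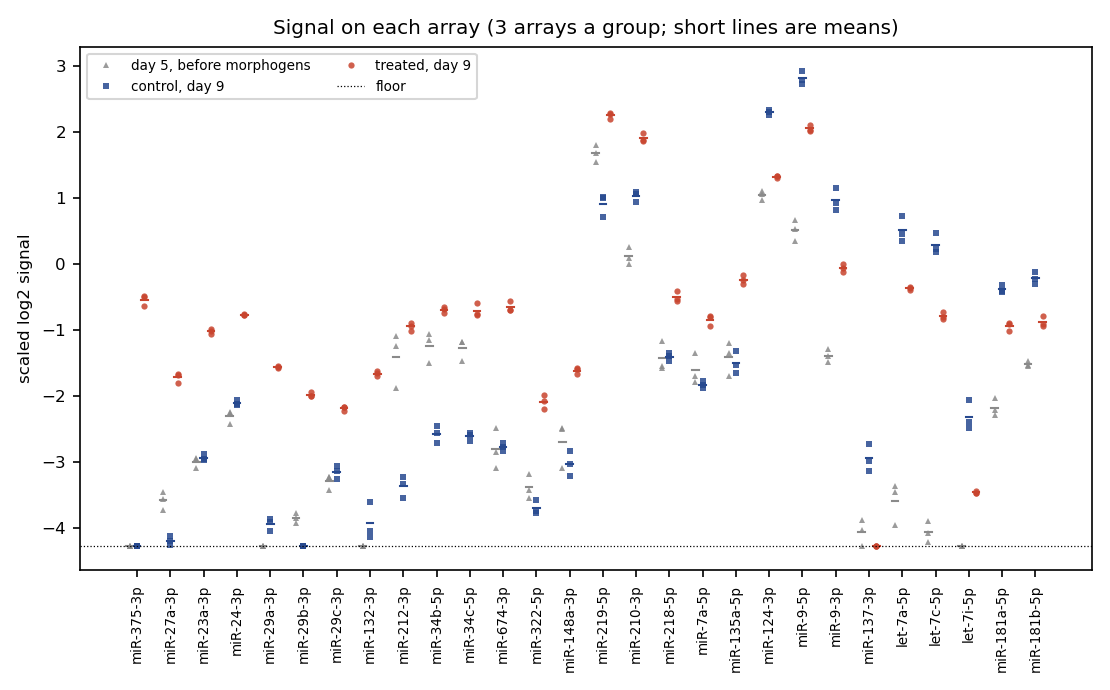
Scaled log2 signal (vertical axis) of 28 miRNAs on each array: treated cells at day 9 (red circles), control cells at day 9 (blue squares) and cells at day 5 before morphogens (grey triangles), 3 arrays each, with means as short lines and the floor of -4.27 dotted. For miR-375-3p the treated arrays stand at -0.48 to -0.62 with the controls at the floor, and for let-7c-5p the treated arrays (-0.82 to -0.72) lie between day 5 and the controls (0.18 to 0.47).

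Both activity-induced miRNAs, miR-132-3p and miR-212-3p, which the factor CREB switches on in stimulated neurons, rose (40.5% of all tested miRNAs were called higher). For miR-132-3p the treated arrays read -1.61, -1.70 and -1.65 and the controls -3.59, -4.04 and -4.13, with control replicate 1 above the other two. The rise was 2.27 (SE 0.12, adjusted p = 3.62e-09), and 2.38 in the slide-blocked fit. The values of miR-212-3p were -0.93, -1.0 and -0.88 against -3.54, -3.33 and -3.22, a rise of 2.42 (SE 0.26, adjusted p = 4.32e-06). In the slide-blocked fit miR-212-3p rose by 1.33 (adjusted p = 0.00908). With normexp the differences were 0.88 for miR-132-3p and 1.18 for miR-212-3p, and with the higher floor 0.62 and 1.33, still called. At day 5, miR-132-3p was above background on 0 of 3 day 5 arrays, while miR-212-3p stood at -1.40 ± 0.42 (SD, n = 3), closer to the treated than to the control cells of day 9. The hairpins lie at chr11:75173388-75173747 on the plus strand, with no other gene listed there. Their 5p arms were above background on none of the 6 arrays.

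The pair miR-34b-5p and miR-34c-5p, targets of p53 that are also abundant in ciliated cells, rose together. The arrays of treated cells gave -0.67, -0.74 and -0.64 for miR-34b-5p, and those of control cells -2.70, -2.45 and -2.55. For miR-34c-5p they gave -0.77, -0.75 and -0.59, and -2.67, -2.55 and -2.59. The groups did not overlap (treated above control for 51.3% of all tested miRNAs), and the rises were 1.88 (SE 0.12) and 1.90 (SE 0.11). The slide-blocked fit gave 1.61 and 1.83, and normexp 1.08 and 1.09. Members of 1 family can share probe signal, so the 2 rises are not independent measurements, here or in the dopaminergic list below. At day 5 both had stood between these groups, at -1.23 ± 0.24 and -1.27 ± 0.17 (SD, n = 3). Of the 11 miRNAs of the miR-34 and miR-449 families on the array, 8 were above background on none of the 6 arrays. The hairpin of miR-34b lies within Hoatz on its own strand (chr9:51103562-51103645, minus) and opposite Btg4.

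Among the other large increases, both arms of the miR-674 hairpin rose. The 3p arm read -0.69, -0.70 and -0.55 in treated and -2.82, -2.71 and -2.76 in control cells, a rise of 2.12 (SE 0.12, adjusted p = 4.60e-09). The 5p arm rose by 1.43 (SE 0.12), and by 0.75 with the mean of its probes in place of the brightest probe, still called. No array of 1 group reached the range of the other for either arm (treated above control for 51.3% of all tested miRNAs). The X-linked miR-322-5p, which shares the seed of miR-15 and miR-16 and is known to slow the cell cycle, read -2.18, -1.98 and -2.07 against -3.74, -3.56 and -3.76 and rose by 1.61 (SE 0.10). With normexp the differences were 1.19 for miR-674-3p, 0.60 for miR-674-5p and 0.60 for miR-322-5p, and with the higher floor 0.44 for miR-674-5p and 0.19 for miR-322-5p, all still called. The X-linked miR-676-3p, whose hairpin lies within Eda, was -2.28, -2.29 and -2.28 in treated cells and above background on 0 control arrays, at least 3.74-fold higher. With the floor raised 4 times its call was lost, as were those of miR-335-3p, miR-199a-3p and miR-5117-3p, all of them dim. The difference of miR-5117-3p was 1.77 with its brightest probe and 0.44 with the mean of its probes.

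The family of miR-148 and miR-152, known for repressing the DNA methyltransferase gene Dnmt1, shares the seed CAGUGCA, and its 3 tested members were called higher with a median of 1.32. The treated arrays read -1.59, -1.57 and -1.66 for miR-148a-3p and the controls -3.21, -2.83 and -3.02, a rise of 1.41 (SE 0.15, adjusted p = 2.84e-06). For miR-152-3p, whose hairpin lies within Copz2, they read -1.97, -1.84 and -1.96 against -3.30, -3.18 and -3.24, a rise of 1.32 (SE 0.13). Both calls held in the slide-blocked fit, with normexp (0.66 and 0.55) and with the higher floor (0.66 and 0.35). The third member, miR-148b-3p, within Copz1, differed by 0.53 (SE 0.11), but by 0.22 in the slide-blocked fit (adjusted p = 0.438) and by -0.06 with the percentile over all probes. Together with the miRNAs named miR-130 or miR-301, all 8 tested miRNAs of these names were called higher (median 0.65), 3 of them under all 4 scalings and 5 in the slide-blocked fit. Over all tested miRNAs these shares were 40.5%, 13.4% and 18.3%. The 8 were matched by name and include miR-130b-5p, which has neither family's seed. Of 4 tested miRNAs with the seed AGUGCAA of miR-130 and miR-301, 3 were called higher. The fourth, miR-721, differed by 0.13 and was not called. Some members, such as miR-148a-3p and miR-148b-3p, differ at few bases and can share probe signal, so the 8 calls are not independent.

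Of 12 tested miRNAs that earlier work ties to dopaminergic neurons, 8 were called higher and 2 lower, against 40.5% and 15% of all tested miRNAs (median 0.69, 0.21 to 0.69 over the scalings, 0.59 in the slide-blocked fit). Of the list, 6 were called higher under all 4 scalings and 6 in the slide-blocked fit, against 13.4% and 18.3% of all tested miRNAs. Of its 27 miRNAs on the array, 13 were above background on none of the 6 arrays. Besides miR-132-3p and the miR-34 pair, the higher members were led by miR-135a-5p, which is linked to midbrain patterning through the factor Lmx1b. It read -0.24, -0.16 and -0.30 in treated and -1.53, -1.32 and -1.64 in control cells, a rise of 1.26 (SE 0.15, adjusted p = 1.11e-05; 0.74 in the slide-blocked fit, adjusted p = 0.0312). For miR-7a-5p, a repressor of the alpha-synuclein gene, the arrays gave -0.78, -0.79 and -0.93 against -1.87, -1.77 and -1.82, a rise of 0.99 (SE 0.12; 0.70 in the slide-blocked fit). For miR-218-5p, a miRNA of motor neurons with hairpins within Slit2 and Slit3, the readings were -0.53, -0.40 and -0.55 against -1.46, -1.39 and -1.34, a rise of 0.90 (SE 0.10; 0.74 in the slide-blocked fit). The groups did not overlap for these 3 (treated above control for 51.3% of all tested miRNAs). The dim miR-135a-2-3p, at the floor in controls, differed by 0.48. It was not called with normexp (0.15, adjusted p = 0.558), with the percentile over all probes (0.06, adjusted p = 0.778) or with the higher floor. The 2 lower members were miR-181a-5p, given below, and miR-125b-5p, at -0.30 (SE 0.10, adjusted p = 0.0259; 0.525 in the slide-blocked fit). Both arms of miR-133b, listed here as a marker of striated muscle as well as of dopaminergic neurons, were above background on none of the 6 arrays. Of the shorter list of dopaminergic neuron markers, 4 of 10 on the array were tested and called higher (40.5% over all miRNAs), 3 of them under all 4 scalings and 3 in the slide-blocked fit. The fourth, miR-7a-2-3p, lost its call without any 1 of the control arrays. The list had a summed scaled signal of 1.60 to 1.71 in treated and 0.772 to 0.788 in control cells. These members are shared with the neuronal list and with the list above, so they are not separate counts.

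**Figure D3:**
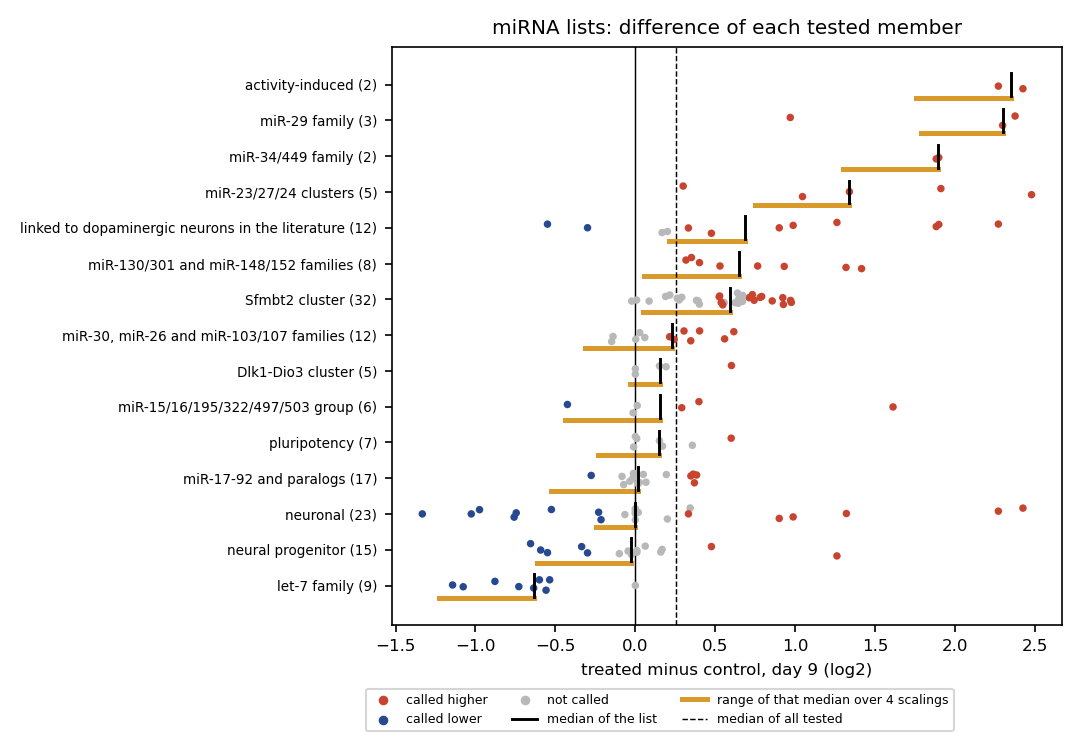
Treated minus control difference (log2, horizontal axis) of each tested member of 15 miRNA lists (rows, number tested in brackets), red where called higher, blue where called lower and grey where not called. Black bars are list medians, orange bars the range of that median over 4 scalings, and the dashed line the median of all 306 (0.25). The medians of the miR-29 family and the let-7 family, 2.30 and -0.64, keep their sign over the scalings, while those of the lists led by miR-17, miR-15 and miR-30 and of the pluripotency and Dlk1-Dio3 lists reach below 0.

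On the other side, the let-7 family was lower in treated cells. Of 9 tested members 8 fell, against 15% of all miRNAs, and the ninth, miR-98-5p, was below background in both groups. The median of the 9 was -0.64, lay between -1.23 and -0.64 over the scalings and was -0.61 in the slide-blocked fit. The arrays of treated cells read -0.80, -0.72 and -0.82 for let-7c-5p and those of control cells 0.47, 0.18 and 0.24, a fall by 1.08 (SE 0.11, adjusted p = 1.90e-06). For let-7a-5p they read -0.36, -0.34 and -0.39 against 0.73, 0.46 and 0.35, a fall by 0.88 (SE 0.15). In let-7i-5p they read -3.46, -3.46 and -3.43 against -2.05, -2.39 and -2.48, a fall by 1.14 (SE 0.09). Control replicate 1 was the highest of the 3 controls for 8 of these 8 members. The treated arrays lay below all 3 controls for each, as they did for 19.9% of all tested miRNAs. The other falls were 0.73 for let-7b-5p, 0.64 for let-7e-5p, 0.60 for let-7f-5p, 0.56 for let-7g-5p and 0.54 for let-7d-5p (SE 0.08 to 0.13). In the slide-blocked fit 5 of the 8 calls held, and 3 did not, with adjusted p = 0.128 for let-7e-5p, 0.0606 for let-7b-5p and 0.0524 for let-7a-5p. With normexp background correction the call did not hold for let-7i-5p (adjusted p = 0.099), let-7e-5p (0.282) or let-7b-5p (0.412). With the higher floor let-7i-5p differed by -0.07 (adjusted p = 0.546) and let-7b-5p was at the floor in both groups, while let-7a-5p and let-7c-5p kept their differences of -0.88 and -1.08. As the sequences above show, members differ at few bases and can share probe signal, so 8 falls are not 8 independent measurements.

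The let-7 hairpins lie in several places, and some mature forms come from more than 1 of them. At chr13:48536012-48538272, on the minus strand and outside the other genes of the table, let-7a-1, let-7f-1 and let-7d sit together. Within Lncppara on the plus strand, at chr15:85706603-85707403, lie let-7c-2 and let-7b. Those of let-7e, let-7f-2 and let-7g lie within Spaca6, Huwe1 and Wdr82 on the same strand as the gene, while let-7i stands alone on chromosome 10. Of neighbours outside the family, miR-99a-5p, next to let-7c-1, differed by -0.02, and the arms of miR-125a, next to let-7e, by 0.16 (5p) and -0.10 (3p), and none of these was called.

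Among 23 tested neuronal miRNAs 6 were called higher and 8 lower, against 40.5% and 15% of all tested miRNAs, and the median was 0.00 (-0.25 to 0.00 over the scalings). Of the 23, 5 were below background in both day 9 groups. Their differences were not measured, yet they count in the median and in the number tested. The 8 lower miRNAs included the best known members. Treated arrays gave 1.31, 1.34 and 1.34 for miR-124-3p, abundant in neurons, and control arrays 2.30, 2.34 and 2.26, a fall by 0.97 (SE 0.07, adjusted p = 5.57e-08). For miR-9-5p they gave 2.04, 2.12 and 2.02 against 2.79, 2.93 and 2.73, a fall by 0.76 (SE 0.11), and for miR-9-3p 0.01, -0.06 and -0.12 against 0.82, 1.16 and 0.93, a fall by 1.03 (SE 0.13). The groups did not overlap (treated below control for 19.9% of all tested miRNAs), and the slide-blocked fit gave -0.87, -1.0 and -1.29. Both arms of each hairpin fell, since miR-124-5p was above background on all control arrays and no treated array. That arm was at least 1.28-fold lower (adjusted p = 0.0558 in the slide-blocked fit and 0.404 with normexp). The neuronal miR-137-3p stood at -3.12, -2.71 and -2.98 in controls and at the floor on the 3 treated arrays, of which 1 was above background. Its difference from the floor was called (adjusted p = 2.18e-06, limma) but its size was not measured, and it was not called with normexp background correction (-0.37, adjusted p = 0.0819) or with the higher floor. Smaller falls were those of miR-598-3p and miR-128-3p, the latter at -0.21 (adjusted p = 0.0453; 0.359 in the slide-blocked fit). The 6 higher members were miR-132-3p, miR-212-3p, miR-7a-5p, miR-218-5p, miR-129-2-3p and miR-7a-2-3p. The last of these, at 0.33 (adjusted p = 0.0275), was not called without treated replicate 3 or without any 1 of the 3 control replicates (adjusted p = 0.0595 to 0.145).

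The 3p arms of the miR-129 hairpins were called in opposite directions. The arm miR-129-2-3p read -1.85, -1.76 and -1.72 in treated and -3.10, -3.09 and -3.10 in control cells, a rise of 1.32 (SE 0.15, adjusted p = 5.91e-06; 1.30 in the slide-blocked fit). The corresponding arm of the other hairpin, miR-129-1-3p, read -3.51, -3.54 and -3.53 in controls and was above background on 0 treated arrays, at least 1.49-fold lower (adjusted p = 7.65e-06). Both calls held in the slide-blocked fit, but that of miR-129-1-3p was lost with normexp (-0.19, adjusted p = 0.529) and with the higher floor, while miR-129-2-3p differed by 0.59 and 0.49 there. With the mean of its probes in place of the brightest, miR-129-2-3p differed by 0.66, still called. In addition, miR-129-5p, the common product of both hairpins, was above background on none of the 6 arrays.

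Of 15 tested neural progenitor miRNAs 2 were called higher and 5 lower, against 40.5% and 15% of all tested miRNAs (median -0.02, and -0.62 to -0.02 over the scalings). The falls were those of the miR-181 family, known from lymphocytes and neural cells, and of miR-125b-5p. All 4 miR-181 members fell: miR-181b-5p by 0.66, miR-181d-5p by 0.59, miR-181a-5p by 0.55 and miR-181c-5p by 0.34 (SE 0.07 to 0.09). For miR-181b-5p the arrays read -0.93, -0.90 and -0.77 in treated and -0.12, -0.22 and -0.29 in control cells, and for miR-181a-5p -1.0, -0.90 and -0.88 against -0.42, -0.32 and -0.40. The treated arrays lay below all controls for the 4 members, as they did for 19.9% of all tested miRNAs. Members differ at few bases and can share probe signal, so the 4 falls are not independent. The call of miR-181c-5p was lost in the slide-blocked fit (adjusted p = 0.0834) and with normexp (0.461). The hairpins of miR-181a and miR-181b form pairs at chr1:137966455-137966718 and at chr2:38852735-38853918, the second pair within Nr6a1os and opposite Nr6a1. Members of the miR-99/100 family, which share the seed ACCCGUA, had differences of -0.05 to 0.01 and were not called.

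Markers of other cell types were checked on the same arrays. None of the miRNAs of endothelium and blood (12 on the array), striated muscle (17), epithelium (12), sensory cells (6) or the Hox clusters (11) was above background on any of the 6 arrays. Of 15 mesenchyme and smooth muscle miRNAs, 4 were above background on at least 1 array and both tested ones were called higher (40.5% over all miRNAs), while all arms of miR-143, miR-145, miR-214, miR-10a and miR-10b were above background on none. The signal of miR-21-5p was 0.51, 0.59 and 0.69 in treated and -0.44, -0.40 and -0.54 in control cells, a rise of 1.05 (SE 0.12; 0.92 in the slide-blocked fit). The other, miR-199a-3p, was above background on 3 treated and 0 control arrays and so entered the test through the treated group, at least 1.57-fold higher (adjusted p = 0.21 with normexp background correction). The summed scaled signal of the list, most of it from miR-21-5p, ran from 1.61 to 1.85 in treated and from 0.845 to 0.913 in control cells. Among 9 glial miRNAs the 3 tested were called higher (40.5% over all miRNAs): besides miR-23a-3p these were miR-219-5p and miR-338-3p, both known from maturing oligodendrocytes. Treated arrays gave 2.29, 2.20 and 2.29 for miR-219-5p and control arrays 0.72, 1.01 and 1.03, a rise of 1.34 (SE 0.11; 1.02 in the slide-blocked fit), while miR-338-3p differed by 0.63 (adjusted p = 0.0551 in the slide-blocked fit). The summed signal of the glial list, most of it from miR-219-5p, was 5.27 to 5.55 in treated and 1.92 to 2.29 in control cells. The part of such cells in the other differences was not tested.

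MiRNAs of the undifferentiated state were mostly below background in both groups. Of 24 pluripotency miRNAs of the miR-290 and miR-302 clusters, 17 were above background on none of the 6 arrays. Of 7 tested 1 was called, as higher (14.3%, against 40.5% of all tested miRNAs). It was miR-290-5p, which read -3.56, -3.76 and -3.36 in treated and -3.96, -4.25 and -4.27 in control cells, a difference of 0.60 (SE 0.16, adjusted p = 0.00681) that was not called in the slide-blocked fit (adjusted p = 0.593) or with normexp (0.547). For miR-302d-3p, a mark of primed epiblast, the arrays gave -2.20, -2.03 and -2.10 against -2.76, -2.33 and -2.31, and the difference of 0.36 was not called (SE 0.16, adjusted p = 0.075). The summed scaled signal of the undifferentiated epiblast list was 0.602 to 0.672 in treated and 0.50 to 0.582 in control cells. At day 5 the same miR-302d-3p had stood at 0.09 ± 0.30 (SD, n = 3), above all 6 arrays of day 9.

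In the proliferation-linked families the directions moved with the scaling. Over all tested miRNAs 40.5% were called higher and 15% lower, and 18.3% and 6.21% in the slide-blocked fit. The miR-17 cluster and its paralogs had 17 tested members, of which 4 were called higher (23.5%) and 1 lower (5.88%). Their median was 0.02 (-0.53 to 0.02 over the scalings), and in the slide-blocked fit none of the 17 was called. Of the miR-15/16 group 3 of 6 were called higher (50%) and 1, miR-497-5p, lower (16.7%), with a median of 0.15 (-0.44 to 0.15). Apart from miR-322-5p, the higher members were miR-16-5p at 0.40 and miR-15b-5p at 0.29, which turned to -0.19 and -0.30 with the percentile over all probes. Of the families of miR-30, miR-26, miR-103 and miR-107 7 of 12 were called higher (58.3%), with a median of 0.23 (-0.32 to 0.23). None of them was called higher under all 4 scalings (13.4% over all tested miRNAs) or in the slide-blocked fit. That fit called miR-30c-1-3p lower (-0.42, adjusted p = 0.00341), which was above background on 1 of the 6 arrays. Among these families, 1 array decided the calls of miR-17-5p, miR-15b-5p, miR-30c-5p, miR-30e-3p and miR-92a-3p, which were lost without treated replicate 2 (adjusted p = 0.0502 to 0.0801). Calls of miR-17-5p, miR-15b-5p, miR-30c-5p and miR-30e-3p were also lost without treated replicate 3 (0.0502 to 0.0677), those of miR-17-5p, miR-30c-5p and miR-30e-3p without control replicate 1 (0.0613 to 0.0916), and those of miR-17-5p, miR-15b-5p and miR-30c-5p without control replicate 3 (0.0534 to 0.0852).

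Hypoxia-induced miR-210 was called higher in both arms. Its 3p arm read 1.87, 1.99 and 1.89 in treated and 1.1, 1.06 and 0.94 in control cells, a rise of 0.88 (SE 0.09, adjusted p = 1.90e-06; 1.03 in the slide-blocked fit). The 5p arm was above background on the 3 treated arrays and on 0 controls, so at day 9 it passed the filter only through treated cells. It was at least 1.49-fold higher, and its call was lost with normexp (0.24, adjusted p = 0.412) and with the higher floor. Within the imprinted gene Mest, miR-335-3p read -3.01, -2.98 and -2.87 in treated cells, was above background on 0 control arrays and was at least 2.35-fold higher. Its fitted difference was 1.32 on the log2 scale, and 0.74 with the mean of its probes in place of the brightest. The other arm, miR-335-5p, read 0.42, 0.44 and 0.43 against -0.64, -0.44 and -0.53, a rise of 0.97 (SE 0.15; 0.36 in the slide-blocked fit, adjusted p = 0.162).

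Both arms were tested for 35 hairpins. Of all tested miRNAs, counted singly, 40.5% were called higher and 15% lower. In 8 both arms were called higher, in 2 (miR-9 and miR-124) both were lower, in 12 only 1 arm was called and in 12 neither was. The remaining hairpin, miR-652, had arms called in opposite directions: miR-652-5p read -0.95, -1.08 and -0.99 in treated and -0.60, -0.51 and -0.68 in control cells (-0.41, adjusted p = 0.0077), while miR-652-3p read -0.64, -0.72 and -0.66 against -0.88, -1.02 and -1.04 (0.31, adjusted p = 0.036). Neither arm was called in the slide-blocked fit (adjusted p = 0.17 and 0.19), and it was singled out after its values were seen. Among hairpins with both arms called in the same direction, miR-210, miR-335, miR-362 and miR-124 each had an arm above background in only 1 of the day 9 groups. Such an arm passed the day 9 filter only through its brighter group and is no separate support.

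The Sfmbt2 cluster holds many near-identical miRNAs of the miR-466, miR-467 and miR-669 families that can share probe signal. Its list was matched by family name and not by position, and holds miR-669n, whose hairpin lies on chromosome 3 opposite Slc30a7. Of 63 miRNAs of these names on the array 32 were tested, and 14 were called higher (43.8%, near the 40.5% of all tested miRNAs) and 0 lower. Their median was 0.59 (between 0.05 and 0.59 over the scalings), and 5 were called higher under all 4 scalings and 7 in the slide-blocked fit. The values of miR-467a-5p were -2.60, -2.55 and -2.56 in treated and -3.51, -3.57 and -3.56 in control cells, a difference of 0.98 (SE 0.05) that was not called with normexp (0.35, adjusted p = 0.0632) or with the higher floor, and those of miR-669f-3p -0.13, -0.15 and -0.03 against -0.95, -0.94 and -0.99, a rise of 0.86 (SE 0.09). Probes for viral miRNAs, which have no known source in these cells, were also present: 4 of 57 were above background on all 6 arrays, and their median difference was 0.53. Their part in the differences of dim miRNAs was not tested. In the Dlk1-Dio3 cluster, an imprinted cluster active in brain, 5 of 96 miRNAs were tested and 1 was called higher (20%, against 40.5% of all tested miRNAs). This was miR-487b-3p, for which treated cells were at least 1.43-fold higher (not called in the slide-blocked fit, adjusted p = 0.391).

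Several bright probes that are seldom studied also differed. For miR-5097 the treated arrays read 2.82, 2.73 and 3.06 and the controls 0.99, 0.86 and 0.73, a rise of 2.01 (SE 0.23; 1.62 in the slide-blocked fit). Next, miR-3968 read 5.12, 5.11 and 5.33 against 3.97, 3.66 and 3.76, a rise of 1.39 (SE 0.19). The day 5 arrays, which share slide 1 with the treated arrays, stood at 2.90 ± 0.48 and 5.01 ± 0.42 (SD, n = 3), near the treated cells. In the other direction, miR-5622-3p read 1.17, 1.04 and 1.1 against 2.06, 1.97 and 1.85, a fall by 0.86 (SE 0.06; -0.84 in the slide-blocked fit). The falls of miR-1224-5p, miR-709, miR-331-3p and miR-5105 were 0.67, 0.69, 0.68 and 0.66, and of these miR-1224-5p kept its call in the slide-blocked fit.

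**Figure D4:**
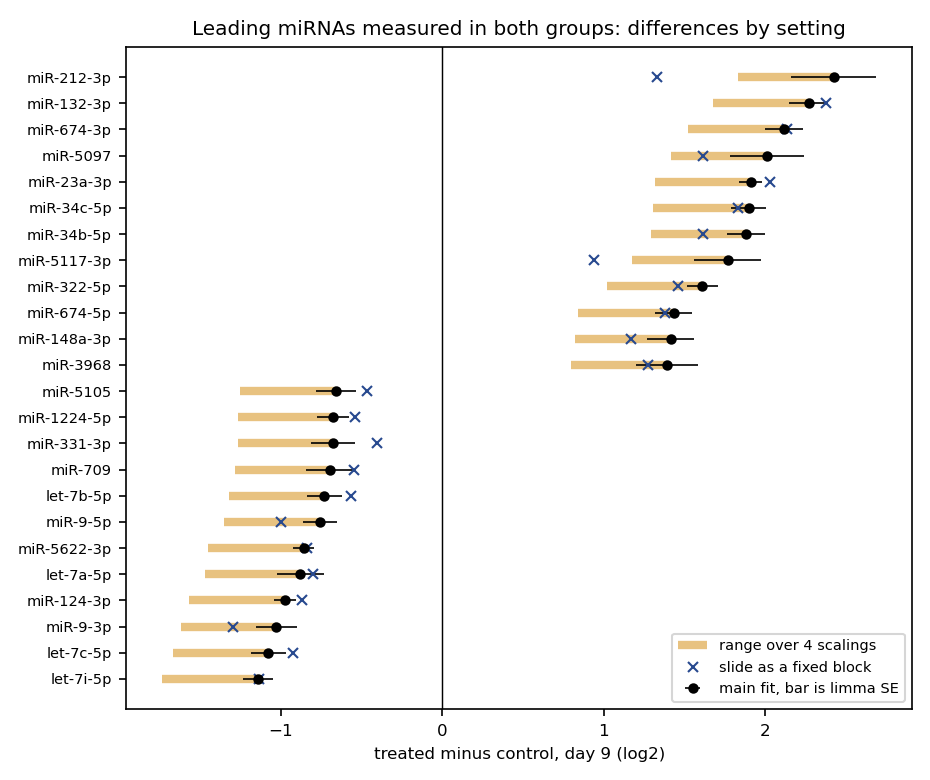
Treated minus control difference (log2, horizontal axis) of 24 called miRNAs above background on all 6 day 9 arrays whose groups did not overlap, the 12 that rose most and the 12 that fell most. Black points are the limma estimates with SE bars, orange bars the range over 4 scalings, and blue crosses the slide-blocked fit. The 24 miRNAs keep their sign throughout, and miR-212-3p moves most with the slide, from 2.42 to 1.33.

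The day 5 arrays, taken before morphogens were added, place these differences, as a description without a test. Over all 306 tested miRNAs the control mean was above the day 5 mean for 114. The treated mean lay between day 5 and control for 116 of them and above both for 134. The direction of a call already fixes part of this position. Among the 46 lower miRNAs the control mean was above the day 5 mean for 41, and the treated mean lay between day 5 and control for 25. All 8 lower let-7 members were of this kind: let-7c-5p, for example, went from -4.05 ± 0.16 (SD, n = 3) at day 5 to -0.78 ± 0.05 in treated and 0.30 ± 0.15 in control cells. So were all 5 lower neural progenitor miRNAs, with miR-125b-5p at 0.73 ± 0.21 at day 5, 3.18 ± 0.07 in treated and 3.48 ± 0.12 in control cells. Likewise miR-124-3p stood at 1.05 ± 0.07 at day 5 against 1.33 ± 0.02 and 2.30 ± 0.04. Of the 124 higher miRNAs the treated mean lay above both other means for 94, including all called members of the miR-29, miR-23/27/24, miR-34 and dopaminergic lists. For the 4 higher members of the miR-17 cluster and its paralogs it lay between control and a higher day 5 level. Treated and day 5 arrays share slide 1, and the control arrays do not. The treated minus control difference at day 14 differed from that at day 9 for 100 of the 306 miRNAs (32.7%, interaction term of the limma fit, adjusted p below 0.05), among them miR-132-3p, at -0.79 on day 14 against 2.27 on day 9.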

How the data were processed

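Total RNA was labelled with Cy3 and hybridised to 1-colour Agilent mouse miRNA arrays, 15 in all, per the labels' protocols. The deposited scanner tables hold an intensity per spot and, per the file headers, were made by the authors with Feature Extraction 11.0.1.1, which subtracted background and set flags for outliers, saturation and signal above background. Of tools, limma 3.20.9 is named by the submitters' processing notes, with no role given. Spots of mouse miRNAs that were no outlier were averaged per probe (2847 probes), each array was divided by its 75th percentile (149 to 337) over 353 probes that every array showed well above background, a floor was set, and log2 taken. The floor is the median over arrays of the dimmest scaled probe still above background. A probe was above background where over 50% of its spots were, and the brightest probe stood for a miRNA.

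The 15 arrays in 5 groups of 3 were fitted together with limma 3.58.1 (R 4.3.3; lmFit and eBayes, 10 residual degrees of freedom), and p-values were adjusted by Benjamini-Hochberg over 306 miRNAs. Tables and plots were made with Python 3.11.15, pandas 2.3.3, numpy 2.4.6 and matplotlib 3.10.9, and the fit was tested on simulated data. Alternatives changed the scaling, background, floor, filter, probe rule, arrays in the fit, slide, replicate block, minimum change, source of the values and replicates. Normexp (offset 50) used the median spot signal, since the tables analysed hold no mean spot signal. The number of arrays limits the precision, and 0 spots were saturated.

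The deposited value table holds an intensity per probe on a linear scale. Between 73.4% and 83.7% of its probes equalled the mean of all spots of the same array within 0.1% in 14 columns, without scaling or centring. The column of treated day 14 replicate 2 repeated replicate 1, and it was left out of that alternative. The column medians were 0.1035, 0.217 and 0.0505 at day 5, 0.443, 0.546 and 0.384 in treated and -0.0248, 0.0967 and 0.212 in control cells at day 9, and 0.697, 0.697 and 0.253 in treated and 0.222, 0.260 and 0.433 in control cells at day 14.

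The miRNAs named were the 12 largest increases and 12 largest decreases among called miRNAs above background on all 6 arrays without overlap, the 10 with the largest bound among the 20 called miRNAs above background on all arrays of 1 group and 0 of the other, up to 6 called members of each list, the 8 seed families with the largest median, and miRNAs known from dopaminergic neurons. The members and lists were chosen with earlier results of these data known.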

Additional observations from a re-analysis of the deposited data

Results flagged for a closer look

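The treated minus control difference was not the same at days 9 and 14 for 38 of the named miRNAs, by the interaction term of the limma fit (adjusted p below 0.05; 32.7% of all 306 tested). Values below are the day 14 difference minus the day 9 difference on the log2 scale. Of miRNAs higher in treated cells at day 9, the change was -3.06 for miR-132-3p, -2.16 for miR-129-2-3p, -1.85 for miR-29b-3p, -1.49 for miR-5097, -1.32 for miR-335-3p, -1.30 for miR-322-5p, -1.20 for miR-212-3p and -1.09 for miR-29a-3p. It was -0.94 for miR-674-3p, -0.90 for miR-3968, -0.87 for miR-676-3p, -0.83 for miR-5117-3p, -0.75 for miR-7a-5p, -0.70 for miR-375-3p, -0.69 for miR-27a-3p and -0.60 for miR-674-5p. Smaller values were -0.56 for miR-210-5p, -0.44 for miR-24-3p, -0.42 for miR-29c-3p, -0.40 for miR-23a-3p, -0.38 for miR-20a-3p and -0.38 for miR-301b-3p, and the opposite sign was seen for miR-135a-2-3p (0.69) and miR-193-3p (0.49).

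Of miRNAs lower in treated cells at day 9, the change was 1.30 for miR-5622-3p, 1.24 for miR-5105, 0.86 for miR-137-3p, 0.63 for miR-1224-5p, 0.51 for miR-181b-5p, 0.47 for miR-124-5p and 0.44 for miR-497-5p, while miR-129-1-3p had -1.03. In the let-7 family it was 0.81 for let-7c-5p, 0.76 for let-7a-5p, 0.71 for let-7e-5p, 0.53 for let-7i-5p and 0.44 for let-7f-5p. For miR-135a-1-3p, not called at day 9, it was 0.87. At day 14 the groups do not lie on the same slides as at day 9: treated replicates 1 and 2 were on slide 1 and replicate 3 on slide 2.

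Probes for viral miRNAs were outside the comparison. Of those above background on all 6 day 9 arrays, 3 were brighter in treated than in control cells: mcmv-miR-m88-1 by 0.85, mghv-miR-M1-2-3p by 0.78 and mcmv-miR-M23-1-5p by 0.29 on the log2 scale. The fourth, mcmv-miR-M87-1, differed by -0.17.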

How the results depend on the processing

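The total of 170 called miRNAs fell to 78 with normexp background (50 higher, 28 lower), to 95 with a floor 4 times higher (62 higher), to 75 with slide as a fixed block (56 higher, 19 lower) and to 40 against a minimum change of 1.5-fold (34 higher, 6 lower). The count called higher was 41, 72 and 65, and that called lower 121, 85 and 89, with the 75th percentile over all probes, median scaling and quantile normalization. Leaving out 1 day 9 array at a time gave 149 to 160 called, 8 to 17 fewer called higher and 41 to 47 lower. The deposited value table gave 168, and the scanner software's summed signal, an alternative chosen after seeing the data, 165. Correlations of same-numbered deviations from the group means were 0.10, -0.22 and 0.21, and those of different numbers ran from -0.39 to 0.34. With so few arrays these values cannot decide whether the numbers pair the samples. The replicate block gave 169 called (122 higher, 47 lower) with 167 shared.

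Of the 84 named miRNAs, 16 changed sign with the percentile over all probes: miR-23b-3p to -0.29, miR-20a-3p to -0.14, miR-106b-3p to -0.22, miR-17-5p to -0.23, miR-25-3p to -0.24, miR-16-5p to -0.19, miR-15b-5p to -0.30, miR-148b-3p to -0.062, miR-130b-3p to -0.19, miR-26b-5p to -0.033, miR-30a-3p to -0.19, miR-26a-5p to -0.24, miR-30e-3p to -0.29, miR-30c-5p to -0.35, miR-135a-1-3p to -0.42 and miR-294-3p to -0.11. Quantile normalization gave -0.10 for miR-20a-3p, -0.091 for miR-106b-3p, -0.15 for miR-30a-3p, -0.22 for miR-30e-3p, -0.28 for miR-135a-1-3p and -0.046 for miR-294-3p. Median scaling gave -0.042 for miR-30c-5p, -0.12 for miR-135a-1-3p and -0.0070 for miR-294-3p, and the slide block gave -0.11 for miR-135a-1-3p. The value table gave -2.71 for miR-487b-3p, and normexp 0.088 for miR-302b-3p. The causes were not tested. Calls of named miRNAs were lost for 32 with the slide block, 30 with normexp, 26 with the higher floor and 0 to 6 without 1 array; the lost ones were miR-17-5p, miR-30c-5p, miR-30e-3p, miR-15b-5p, miR-23b-3p, miR-7a-2-3p and miR-92a-3p (adjusted p = 0.0502 to 0.145). Signal over background limits dim miRNAs: those near the floor have only a bound.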
